A study of Mus musculus with 15 samples.

Results

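Committed early innate lymphoid progenitors (c-EILP) were compared with all-lymphoid progenitors (ALP) across all genes of the deposited expression table, using 6 of the 15 bulk RNA-seq libraries of sorted mouse bone marrow cells. The ALP libraries (n = 3) came from mice of genotype Tcf7EGFP/+, in which 1 Tcf7 allele carries a fluorescent reporter. They were Lin-, Kit+, 2B4+ and a4b7- cells with Flt3high and IL-7Ra+ staining. The c-EILP libraries (n = 3) came from mice carrying both a Tcf7GFP and a Zbtb16GFP reporter. They were likewise Lin-, Kit+ and 2B4+, but a4b7+ and Tcf7+, without Thy1 (Thy1-), and were gated as Zbtb16high with Flt3low. Both groups share the C57BL/6 background. Reporter genotype and cell stage therefore changed together between the groups and cannot be told apart. Batch 1 held ALP replicate 1 with c-EILP replicates 1 and 2, and batch 2 held the other ALP and c-EILP libraries. The sources do not say whether replicates came from separate animals, so every p-value measures only the spread between these libraries. Specified EILP (s-EILP, n = 2, batch 1), with the same reporters as c-EILP but sorted as Zbtb16low and Flt3high, were read beside them. EILP of genotype Tcf7EGFPnull/+ (n = 3), EILP of genotype Tcf7EGFPnull/- (n = 2) and innate lymphoid cell precursors of genotype Tcf7EGFP/+ (ILCP, n = 2, sorted as a4b7+ Tcf7+ Thy1+ IL-7Ra+) shared the model's estimate of spread.

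All-lymphoid progenitors in bone marrow can give rise to B cells, T cells, natural killer cells, other innate lymphoid cells (ILC) and some dendritic cells. On the path to ILC, cells turn on a set of transcription factors that includes TCF-1 (encoded by Tcf7), GATA3, Id2, TOX, NFIL3 and PLZF (encoded by Zbtb16), and lose the potential for other fates step by step. Expression of Zbtb16 at a high level together with low Flt3 is used to mark the committed end of the EILP stage.

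The table gives log2 expression values that range up to 11.87 in each of the 6 libraries, with no counts, so the sequencing depth behind a value is unknown. The floor of a library, its lowest value, ran from -4.83 to -4.60 in these 6 and was shared by 747 to 1874 genes. Where a whole group sits on its floor, the gene is said to be at the lowest value there and the size of the change is left out. Correlations over tested genes were 0.81 to 0.87 within ALP, 0.83 to 0.84 within c-EILP and 0.73 to 0.82 between them. Y-linked transcripts were found in 1 of 3 ALP and 3 of 3 c-EILP libraries, and Xist in 2 of 3 of each group. Sex and cell stage thus partly changed together between the groups. In bulk samples, fewer cells of a type and less RNA per cell cannot be told apart.

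Of 12572 tested genes, 503 differed between c-EILP and ALP (4.0%; limma, Benjamini-Hochberg adjusted p under 0.05), 248 higher in c-EILP (1.97%) and 255 lower (2.03%). The median difference over all tested genes was 0.01 on the log2 scale, and 6347 of them were positive. Among the changed genes, 444 differed by at least 1 log2 unit, 222 in each direction, and the smallest called difference was 0.42. The 3 c-EILP and 3 ALP values did not overlap for 501 of the 503, against 3234 of all tested genes (25.7%). The exceptions were Cnppd1 and Nedd4. A lack of overlap given below for a called gene therefore adds little to its call. All 3 ALP libraries were at their lowest value for 43 of the genes that rose, and all 3 c-EILP libraries for 54 of those that fell. All 503 kept their sign in each alternative fit that included them, each batch alone among these; 1 of the alternatives left out 97 of them, those with a whole group at the lowest value. Of the 503, 176 stayed called whichever of the 6 libraries was left out, and 250 were also called when only these 6 libraries were fitted. The number of changed genes fell to 256 without c-EILP replicate 1, 273 without c-EILP replicate 3, 297 without ALP replicate 1 and 274 without ALP replicate 2.

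**Figure D1:**
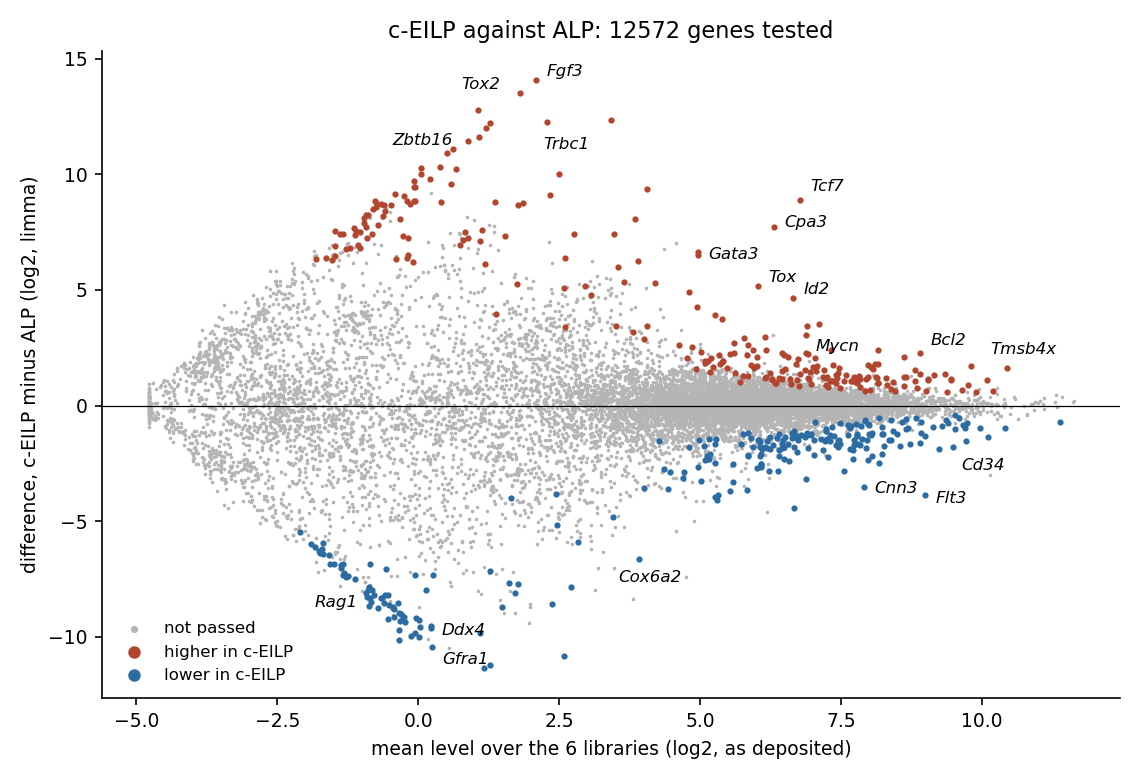
Each point is 1 of the 12572 tested genes, with its mean log2 value over the 6 libraries on the horizontal axis and the fitted log2 difference of c-EILP minus ALP on the vertical axis; the 248 genes higher and 255 lower at adjusted p under 0.05 are coloured. Tcf7, Fgf3 and Tox2 lie far above 0, and differences of genes at the lowest value in a whole group depend on that value.

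The genes behind the sort gates followed the labels. Tcf7, whose reporter was gated on, stood at 2.54, 2.64 and 1.91 in the 3 ALP libraries and at 11.34, 11.06 and 11.14 in the 3 c-EILP libraries (a difference of 8.91 ± 0.29, SE, limma adjusted p = 1.4e-08). Zbtb16 was at or near the lowest value in ALP (-4.60, -4.83 and -4.53) and reached 6.96, 6.80 and 6.71 in c-EILP (adjusted p = 2.52e-07). The groups lay far apart for both genes. Itga4 and Itgb7, the chains of the a4b7 integrin, rose by 2.12 ± 0.17 and 2.41 ± 0.26 (adjusted p = 5.26e-05 and 0.000428). Flt3, the receptor for the FLT3 ligand that sustains multipotent and lymphoid progenitors, was 10.98, 10.53 and 10.53 in ALP against 6.69, 8.26 and 6.98 in c-EILP (-3.85 ± 0.65, adjusted p = 0.00627). Kit (1.19 ± 0.41, adjusted p = 0.157), Cd244, which encodes 2B4 (0.41 ± 0.51, 0.788), Il7r (-0.67 ± 2.23, 0.939) and Thy1 (0.32 ± 1.67, 0.964) did not pass. The IL-7 receptor was part of the ALP gate alone, and its transcript was 7.91, 8.95 and 7.89 in ALP and 7.59, 6.85 and 6.70 in c-EILP.

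Many transcription factors of the ILC path were among the genes that rose. Of 17 listed regulators tested, 8 rose (47.1%, against 1.97% of all tested genes) and 0 fell. All 17 fitted differences were positive, with a median of 4.64 (4.84 without 3 genes whose ALP libraries were all at the lowest value). Those 3 passed the filter through other libraries, so their part of the count is no independent support. Tox, an HMG-box factor needed for early ILC progenitors, was 3.34, 3.71 and 3.47 in ALP and 8.86, 8.38 and 8.38 in c-EILP (5.16 ± 0.24, limma adjusted p = 2.52e-07). Id2, the inhibitor of E proteins that marks ILC-committed cells, was 3.76, 5.16 and 4.11 in ALP and 9.41, 9.10 and 8.33 in c-EILP, 25-fold higher (4.64 ± 0.36, 4.4e-05). Gata3, a zinc finger factor required for ILC and T cells, was -0.71, 3.58 and 2.90 in ALP and 8.01, 8.01 and 8.02 in c-EILP (6.53 ± 0.70, 0.000459). None of these 3 genes had overlapping groups, as was so for 501 of the 503 changed genes. Gata3 varied far less among the c-EILP than among the ALP libraries. Runx3, a Runt-domain factor of cytotoxic and innate lymphocytes, rose by 2.30 ± 0.20 (adjusted p = 0.000114).

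Tox2, the paralogue of Tox, was at the lowest value in all 3 ALP libraries and at 8.32, 8.21 and 8.56 in c-EILP (limma adjusted p = 0.00219). Bcl11b, a zinc finger factor of T cell and ILC2 commitment, was at or near the lowest value in ALP and at 5.23, 3.33 and 5.03 in c-EILP (0.00286). Lef1, the close relative of TCF-1, reached 6.06, 5.01 and 1.31 in c-EILP (0.0135). Its call ended without c-EILP replicate 1 (adjusted p = 0.0614) or ALP replicate 1 (0.0561). Nfil3, a leucine zipper factor that acts at the start of the ILC path, rose from 5.28, 4.85 and 6.25 to 7.63, 8.55 and 6.79 (2.10 ± 0.53, 0.0487). It was the regulator nearest the threshold, and leaving out any of 5 of the 6 libraries ended its call (adjusted p up to 0.219, without ALP replicate 1); it kept it without ALP replicate 3. Among members that did not pass, Rora, needed for ILC2, was 2.49, 3.23 and -1.83 in ALP and 8.44, 7.70 and 7.42 in c-EILP (7.03 ± 1.93, adjusted p = 0.0688), with no overlap. Ets1, which supports ILC2 and natural killer cells, overlapped between groups at 7.41, 7.01 and 6.44 against 7.24, 7.10 and 6.62 (0.51 ± 1.88, 0.948). Tbx21, the factor that defines ILC1, was above the lowest value in 1 c-EILP library alone (3.93, -4.83 and -4.83).

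**Figure D2:**
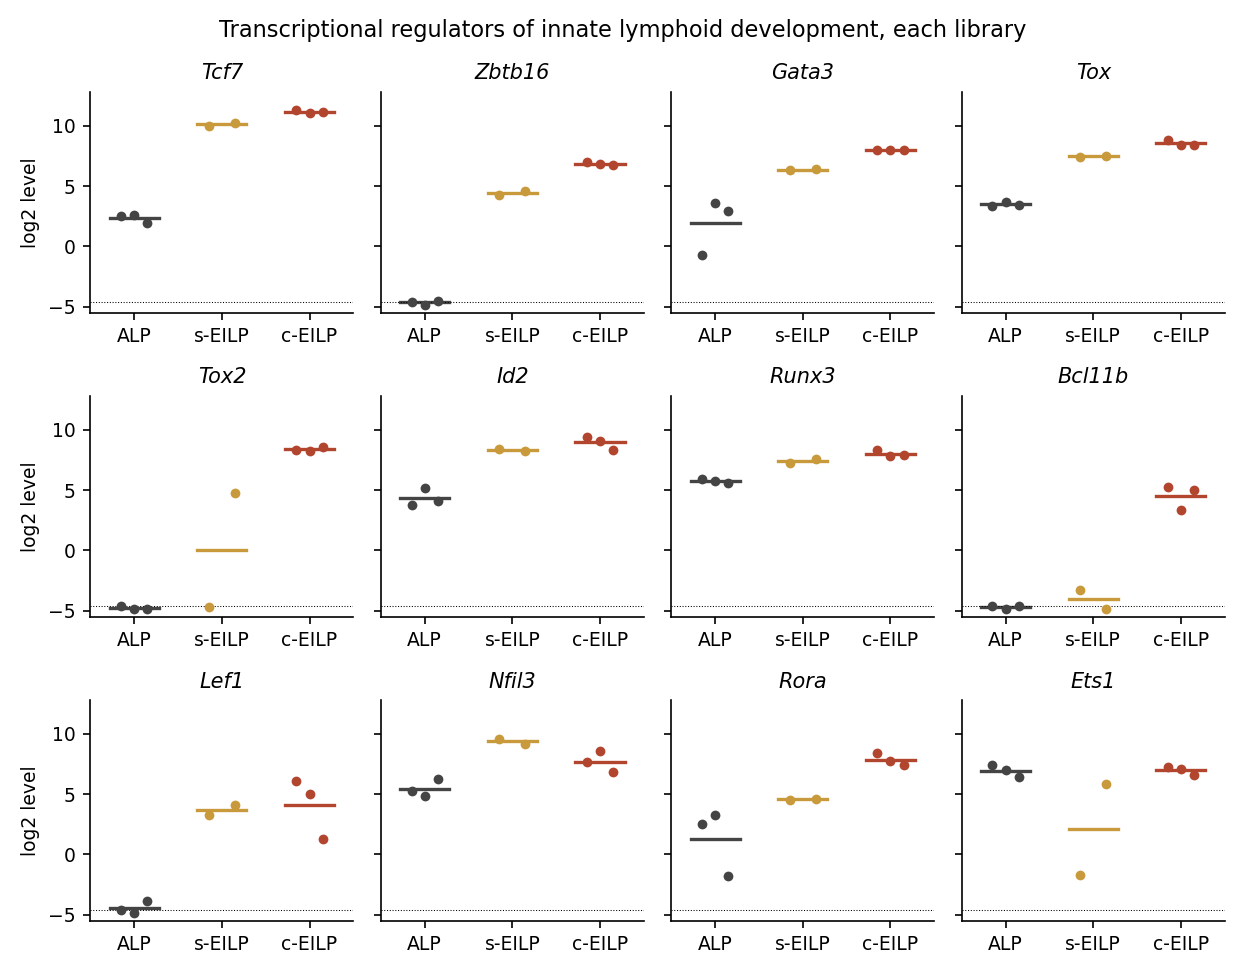
Log2 values of regulators of the ILC path in the 3 ALP, 2 s-EILP and 3 c-EILP libraries, 1 panel per gene, with 1 point per library and a bar at the group mean; the dotted line is the greatest of these libraries' lowest values. ALP and c-EILP do not overlap for Tcf7, Tox, Id2 and Gata3, whereas they do for Ets1.

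T cell receptor gene segments made up 19 of the 248 rises. Near-identical segments share reads, so values of single segments are uncertain. A segment was tested if it reached a log2 value of 0 in 2 of the 15 libraries, and those at the lowest value throughout ALP entered through the other groups, so the count is no independent support. Of 29 segments tested 19 rose (65.5%, against 1.97% of all tested genes) and 0 fell. All 29 differences were positive, with a median of 7.41 (5.65 without the 19 segments at the lowest value throughout one group). The number that rose was 11 without c-EILP replicate 1 and 11 without ALP replicate 2. Segments of the T cell receptor beta cluster formed a run of 9 changed neighbours on chromosome 6, from Trbd1 through Trbj1-1 to Trbj1-7 and Trbc1 (chr6:41533201-41539881, mm10). The constant segment Trbc1 was -1.83, -4.83 and -4.67 in ALP and 8.57, 7.90 and 8.60 in c-EILP (limma adjusted p = 5.37e-05). Trbj1-1 was at the lowest value in all ALP libraries and at 6.18, 5.40 and 6.33 in c-EILP (0.000301). In the gamma locus on chromosome 13, Tcrg-C4 went from the lowest value in all ALP libraries to 7.58, 6.86 and 7.45 (0.000914), and Tcrg-C1 from -4.60, 0.42 and 3.62 to 8.50, 8.43 and 8.02 (0.00292). The joining segment Trgj4 beside Tcrg-C4 was low even in c-EILP, at 2.02, -0.64 and 1.97 (0.0328), and its call ended on leaving out c-EILP replicate 1 (0.118), c-EILP replicate 3 or any ALP library.

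Of 19 other T lineage genes tested, 4 rose (21.1%, against 1.97% of all tested genes) and 0 fell (median 0.97). For 6 of the 19, a whole group was at the lowest value. Those passed the filter through other libraries, so the count is no independent support. Txk, a Tec-family kinase, was at the lowest value in every ALP library and at 5.10, 5.47 and 4.03 in c-EILP (limma adjusted p = 0.00571). Themis, a signalling protein of thymocyte selection, was at the lowest value throughout ALP and at 5.25, 4.90 and 5.39 in c-EILP (0.0283). Trat1, a receptor-associated adaptor, rose too (0.0278). The groups did not overlap for any of these 3 genes. Leaving out 1 library ended the call of Themis (any of the 6, up to 0.118 without c-EILP replicate 3) and of Trat1 (all but ALP replicate 2, up to 0.143 without ALP replicate 1). The list's 4 rises became 1 or 2 without any library other than ALP replicate 2. The CD3 genes Cd3e and Cd3d did not pass: Cd3e was at the lowest value in all ALP libraries and at -0.01, 0.98 and -4.83 in c-EILP (0.555), and Cd3d at -4.77, -0.18 and -4.83 (0.887).

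In the Notch pathway 2 of 9 tested genes rose (22.2%, against 1.97% of all tested genes) and 1 fell (11.1%, against 2.03%). Hes1, a transcriptional repressor and a target of Notch signalling, was 2.49, 1.61 and -2.36 in ALP and 6.67, 6.42 and 6.42 in c-EILP (6.00 ± 1.18, limma adjusted p = 0.0146). Rbpj, the DNA-binding partner of cleaved Notch, rose by 1.15 ± 0.26 (0.0278). Notch1 itself moved the other way, from 8.27, 7.74 and 7.59 to 5.13, 3.26 and 6.28 (-2.83 ± 0.59, 0.0189), and it lies next to Egfl7, which fell too. All 3 calls depended on single libraries: Hes1 was lost without c-EILP replicate 1 (0.0565) or c-EILP replicate 3 (0.0623), Notch1 without ALP replicate 1 (0.136) or ALP replicate 2, and Rbpj without any library other than ALP replicate 1 (up to 0.0976 without ALP replicate 2). Wnt and TCF partners gave 0 calls among 16 tested by limma, with a median of 0.12.

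A pair of fibroblast growth factor genes was among the widest rises. Fgf3 and Fgf15 encode secreted growth factors best known from embryonic patterning, and both were at the lowest value in every ALP library. In c-EILP, Fgf3 reached 9.05, 8.40 and 9.32 (limma adjusted p = 0.000326) and Fgf15 reached 6.69, 6.76 and 7.15 (0.00422). The genes lie on chromosome 7 (mm10), Fgf3 at chr7:144838083-144844436 on the plus strand and Fgf15 at chr7:144896531-144900953 on the plus strand, 58.45 kb apart by their starts. Neighbours on the side of Fgf3 were higher too. Cttn, encoding the actin regulator cortactin, rose from 4.25, 7.0 and 5.38 to 8.66, 8.51 and 8.81 (3.55 ± 0.48, 0.00176). Ppfia1, encoding a liprin scaffold, rose by 1.77 ± 0.35 (0.0153), a call that ended without c-EILP replicate 1 (0.0662). Ano1, a chloride channel gene, went from the lowest value in all ALP libraries to 2.47, 5.60 and 5.71 (0.0285), and its call held only without c-EILP replicate 1 among the leave-outs (up to 0.155 without c-EILP replicate 3). Fadd, a death receptor adaptor, lies between them and did not pass (0.05 ± 0.86, 0.991). Ccnd1, the cyclin D1 gene on the other side of Fgf15, was 4.09, 3.86 and 3.34 in ALP and -3.32, 2.67 and -4.83 in c-EILP, without passing (0.135). The neighbourhood was chosen after its values had been seen.

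**Figure D3:**
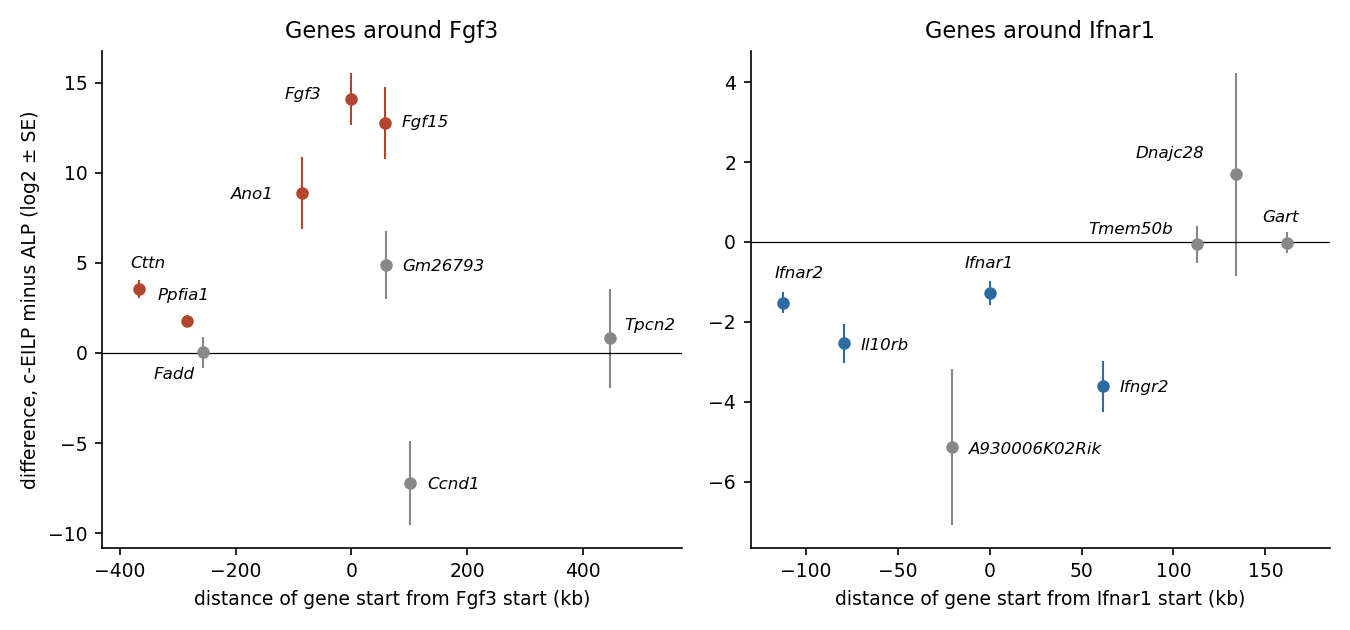
Fitted log2 differences (c-EILP minus ALP, with SE bars) of the genes around Fgf3 on chromosome 7 and around Ifnar1 on chromosome 16, by distance in kb between gene starts. Cttn, Ppfia1, Ano1, Fgf3 and Fgf15 lie above 0 around the first, Ifnar2, Il10rb, Ifnar1 and Ifngr2 below 0 around the second; for Ano1, Fgf3 and Fgf15 the size depends on the lowest value in ALP.

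Sequences just before a RefSeq start are shown for 4 genes whose transcripts were among the widest rises (Fgf3, Tox2, Cpa3) and falls (Flt3). The sequences were also chosen because each holds at least 1 of the 4 motifs searched. They are the 250 bases before a RefSeq start in GRCm38.p6, written 5′ to 3′ on the gene's strand, with motif matches on either strand in capitals. Fgf3 (chr7:144838362-144838611, plus strand, before a RefSeq start that lies inside the gene as GENCODE draws it) holds the reverse complements of CTTTGA and AGATAA, 197 and 115 bases before the start. Tox2 (chr2:163225203-163225452, plus strand, before an internal start of the gene) holds the reverse complement of CTTTGA, 139 bases before it. The Tox2 windows at starts further upstream hold none of the 4 motifs. Cpa3 (chr3:20242182-20242431, minus strand) holds the reverse complement of TGTGGT, then CAGCTG and AGATAA, 73, 59 and 46 bases before the start. Flt3 (chr5:147400490-147400739, minus strand) holds the reverse complement of CTTTGA, 179 bases before it. No capitals overlap.
Fgf3: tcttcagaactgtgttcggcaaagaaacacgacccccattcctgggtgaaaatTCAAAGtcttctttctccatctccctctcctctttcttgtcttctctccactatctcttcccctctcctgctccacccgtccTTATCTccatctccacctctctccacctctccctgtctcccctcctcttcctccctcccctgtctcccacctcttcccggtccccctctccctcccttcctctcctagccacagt
Tox2: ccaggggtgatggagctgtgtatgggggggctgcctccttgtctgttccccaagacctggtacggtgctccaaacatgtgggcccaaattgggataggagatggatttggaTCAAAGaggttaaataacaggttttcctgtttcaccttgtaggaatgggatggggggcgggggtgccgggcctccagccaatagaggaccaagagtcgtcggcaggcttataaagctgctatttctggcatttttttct
Cpa3: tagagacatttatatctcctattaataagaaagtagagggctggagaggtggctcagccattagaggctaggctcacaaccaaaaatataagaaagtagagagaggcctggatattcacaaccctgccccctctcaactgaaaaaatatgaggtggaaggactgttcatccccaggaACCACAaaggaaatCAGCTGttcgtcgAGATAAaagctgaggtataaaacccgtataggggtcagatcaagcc
Flt3: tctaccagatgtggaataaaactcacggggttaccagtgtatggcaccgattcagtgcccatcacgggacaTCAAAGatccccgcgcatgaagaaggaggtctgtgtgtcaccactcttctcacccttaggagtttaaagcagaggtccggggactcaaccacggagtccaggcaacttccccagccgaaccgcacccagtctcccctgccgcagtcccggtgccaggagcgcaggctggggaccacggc

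Motif matches of this kind were common everywhere. In all 32851 RefSeq windows, read over the same 250 bases before the start, CTTTGA, the core of the TCF and LEF motif, was in 13.8%, AGATAA, read by Gata3 and its relatives, in 9.99%, CAGCTG, an E box, in 13% and TGTGGT, a RUNX motif, in 14%. RefSeq held 30 windows for 20 of the 30 genes with the widest changes, several of them overlapping starts of 1 gene. Among the 20 windows of those that rose, the TCF and LEF core was in 5, the Gata3 motif in 3, the E box in 6 and the RUNX motif in 3. Among the 10 windows of those that fell they were in 1, 1, 2 and 0. Over all changed genes, the TCF and LEF core was in 13.7% of 262 windows of genes that rose and 12.1% of 256 windows of genes that fell, against 10.6% of the windows of tested genes. The E box was in 17.6% and 12.5%, against 11.5%. The Gata3 motif was in 8.78% and 5.47%, against 6.21%, and the RUNX motif in 10.7% and 14.5%, against 11.3%. A match describes these letters in these windows and says nothing of binding.

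Receptors for cytokines changed in few members. Of 21 receptors of lymphoid cells tested, 2 rose and 2 fell (9.52% each, against 1.97% and 2.03% of all tested genes). Their median was -0.81. Il2rb, the beta chain shared by the IL-2 and IL-15 receptors, was 3.26, -4.83 and 0.28 in ALP and 7.98, 7.47 and 6.70 in c-EILP (limma adjusted p = 0.0114), a call that ended without c-EILP replicate 3 (0.0621) or with the 6 libraries fitted alone (0.11). Il12rb2, a chain of the IL-12 receptor, rose from 1.64, 4.33 and 4.91 to 7.06, 7.31 and 7.08 (3.76 ± 0.56, 0.00309). Neither gene's groups overlapped. Il2rg, the common gamma chain, was 6.45, 7.12 and 6.47 in ALP and 7.55, 7.59 and 7.43 in c-EILP and did not pass (0.86 ± 0.23, 0.0653). Csf1r, the receptor of a macrophage growth factor, was 7.03, 8.10 and 7.99 in ALP and -4.77, 4.45 and 4.66 in c-EILP, a wide gap that did not pass either (0.264). Downstream kinases and factors were listed after values had been seen. Of 11 JAK and STAT genes, 4 rose (36.4%, against 1.97% of all tested genes) and 0 fell (median 0.68). Stat5a and Jak1 rose by 1.66 ± 0.24 (0.00248) and 1.11 ± 0.16 (0.00249), Stat3 by 1.23 ± 0.29 (0.0344) and Stat5b by 0.96 ± 0.20 (0.0179). Stat5b, Stat5a and Stat3 are direct neighbours on chromosome 11 (chr11:100780731-100939540). Leaving out single libraries ended the calls of Stat3 (5 of 6, up to 0.113 without ALP replicate 2) and Stat5b (4 of 6, up to 0.099 without c-EILP replicate 3).

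A cluster of interferon and IL-10 receptor genes on chromosome 16 held 4 falls. Of 6 such chains, also listed after values had been seen, 4 fell (66.7%, against 2.03% of all tested genes) and 0 rose. The 4 are the ones that sit together there. Ifnar2 and Ifnar1, the chains of the type I interferon receptor, changed by -1.52 ± 0.26 (limma adjusted p = 0.00615) and -1.28 ± 0.31 (0.0394). Ifngr2, the signalling chain of the interferon gamma receptor, was 6.20, 6.25 and 5.62 in ALP and 2.36, 4.46 and 1.66 in c-EILP (-3.61 ± 0.64, 0.00795). Il10rb, shared by the IL-10, IL-22 and type III interferon receptors, was 7.09, 7.56 and 7.25 in ALP and 4.67, 5.21 and 4.73 in c-EILP (-2.54 ± 0.49, 0.0135). None of the 4 overlapped between groups, and the flanking Tmem50b and Gart did not pass (-0.06 ± 0.46 and -0.02 ± 0.26). The calls of Ifngr2 (without c-EILP replicate 3, 0.0535), Il10rb (without c-EILP replicate 1, c-EILP replicate 3 or ALP replicate 2, up to 0.0584) and Ifnar1 (5 of 6, up to 0.181 without c-EILP replicate 3) ended when 1 library was left out, and that of Ifnar2 when the 6 libraries were fitted alone (0.0559). Interferon response genes gave 0 calls of 22 tested by limma, although 21 of the 22 differences were negative, with a median of -1.72.

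Surface and effector genes of innate lymphocytes rose in single members. Of 12 ILC surface and effector genes tested, 3 rose and 0 fell (median 2.56, or 2.22 without 5 at the lowest value throughout one group). Pdcd1, encoding the inhibitory receptor PD-1 that ILC progenitors carry, was 2.44, 4.81 and -2.36 in ALP and 8.77, 7.93 and 8.22 in c-EILP (6.66 ± 1.41, limma adjusted p = 0.0207). Cxcr5, a chemokine receptor of follicular homing, was -4.60, -3.19 and 2.03 in ALP and 6.89, 6.27 and 6.61 in c-EILP (0.00311). Cd160, a receptor of cytotoxic and innate lymphocytes, was at the lowest value in ALP and at 3.25, 0.20 and 1.97 in c-EILP (0.0218). The groups stayed apart for all 3. With the 6 libraries fitted alone, Pdcd1 (0.142), Cxcr5 (0.0589) and Cd160 (0.0814) did not pass. Pdcd1 lost its call without c-EILP replicate 1, c-EILP replicate 3 (0.0857) or ALP replicate 1, and Cd160 without any library other than c-EILP replicate 2 (up to 0.0895). Markers of later ILC did not pass: Il1rl1, the IL-33 receptor of ILC2, was at the lowest value in all c-EILP libraries (0.342), and Icos, a costimulatory receptor, was 1.16, 2.31 and -0.02 (0.586).

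Natural killer and cytotoxic genes gave 3 rises (21.4%, against 1.97% of all tested genes) and 0 falls among 14 tested. Their median was 1.13, or 1.54 without 8 at the lowest value throughout one group, and 0.40 without c-EILP replicate 2. Those 8 passed the filter through other libraries, so the count is no independent support. The rises became 2 without any library other than ALP replicate 1. Nkg7 and Ctsw encode granule proteins of cytotoxic cells and Ccl5 a chemokine they secrete. Ctsw rose from 5.13, 3.96 and 3.65 to 7.34, 6.80 and 6.77 (2.71 ± 0.46, limma adjusted p = 0.00652), Ccl5 from -4.60, 0.87 and -4.55 to 6.20, 5.15 and 5.14 (0.00239) and Nkg7 by 1.34 ± 0.33 (0.0427). Nkg7 lost its call without any library other than ALP replicate 1 (up to 0.14), and Ccl5 with the 6 libraries fitted alone (0.0814). The summed level of 4 defining natural killer markers, in linear units, was 2.7 to 22.6 in ALP and 0.146 to 1.5 in c-EILP, with Klrb1c and Prf1 at the lowest value throughout c-EILP and Ncr1 and Gzma throughout ALP.

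Genes of mast cells and megakaryocytes rose in single members. Cpa3, encoding carboxypeptidase A3 of mast cell granules, was 2.06, 1.76 and 3.49 in ALP and 10.34, 10.19 and 10.06 in c-EILP, 210-fold higher (7.72 ± 0.39, limma adjusted p = 4.77e-07). It was the only rise among 8 mast cell and basophil genes tested. Prss34, a basophil protease, was high in c-EILP replicate 1 alone (8.91, against -4.14 and -4.41). The summed basophil and mast cell markers, Prss34 among them, were 698, 70.5 and 26.3 in c-EILP replicates 1, 2 and 3. In ALP they ran from 8.7 to 47.5. Cpa3 was high in all 3 c-EILP libraries, and the part of mast cells or basophils in its rise was not tested. Fcer1g, the common signalling chain of Fc receptors, rose by 1.56 ± 0.21 (0.0019). Among 14 erythroid and megakaryocyte genes 2 rose (14.3%, against 1.97% of all tested genes). Itga2b, the integrin chain CD41, went from -4.60, -4.83 and 2.55 to 7.24, 7.10 and 7.48 (0.00433). Gp1bb, a platelet receptor chain, went from the lowest value in all ALP libraries to 2.89, 3.65 and 2.85 (0.0199). Gp1bb lost its call without any library other than ALP replicate 3 (up to 0.104), and Itga2b with the 6 libraries fitted alone (0.0695). Pf4, a defining platelet gene, was at the lowest value in all 6 libraries.

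Several of the widest rises belong to no listed group. Rxrg, a retinoid receptor, was at the lowest value in all ALP libraries and at 7.02, 6.56 and 5.97 in c-EILP (limma adjusted p = 0.00142). Perp, a desmosomal protein and p53 target, was likewise at the lowest value in ALP and at 5.67, 5.55 and 6.09 in c-EILP (0.00156). Col9a3, a cartilage collagen chain, reached 5.62, 5.39 and 5.58 (0.000114) and Megf10, an engulfment receptor, 6.62, 5.78 and 5.83 (0.00791), both from the lowest value throughout ALP. Tnni1, the slow skeletal muscle troponin I, was 2.60, 2.07 and 2.81 in ALP and 7.45, 6.56 and 7.35 in c-EILP, 30-fold higher (4.91 ± 0.69, 0.00219). Gfod1 rose by 5.35 ± 0.97 (0.00914), Emilin2, an extracellular matrix glycoprotein, by 5.28 ± 1.18 (0.0278) and Cela1, an elastase, by 5.19 ± 1.17 (0.0283). The last 3 varied widely in ALP. Their calls ended without ALP replicate 1 for Gfod1 (0.064), without any library other than ALP replicate 3 for Emilin2 (up to 0.0978) and without any other than ALP replicate 2 for Cela1 (up to 0.112), and Megf10 lost its call without c-EILP replicate 3 (0.0607) or ALP replicate 1 (0.053).

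Rises of abundant transcripts included cytoskeletal genes. Tmsb4x, encoding the actin-sequestering thymosin beta 4, was 9.65, 9.81 and 9.43 in ALP and 11.23, 11.28 and 11.23 in c-EILP, 3.08-fold higher (1.62 ± 0.11, limma adjusted p = 1.62e-05). Flna, the actin crosslinker filamin A, rose by 1.13 ± 0.21 (0.00932; 0.0713 without c-EILP replicate 3) and Skp1a, an adaptor of SCF ubiquitin ligases, by 1.70 ± 0.21 (0.00132). Calponins and transgelins, actin-binding proteins listed after values had been seen, changed in opposite directions. Tagln2 and Cnn2 rose by 1.16 ± 0.12 (0.000301) and 1.22 ± 0.21 (0.00612), while Cnn3 went from 9.88, 9.54 and 9.29 to 5.98, 6.54 and 6.17, 11.5-fold lower (-3.53 ± 0.34, 0.000193).

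Further changed genes were picked after their values had been seen. Serpine2, a secreted protease inhibitor, was -4.60, -4.83 and 2.91 in ALP and 9.11, 8.59 and 9.34 in c-EILP (limma adjusted p = 0.00615). Spon2, a matrix protein, was -4.60, -4.83 and -4.14 in ALP and 7.15, 6.78 and 6.82 in c-EILP (0.00112). Grb2, an adaptor of receptor tyrosine kinases, rose from 7.17, 7.28 and 7.47 to 8.90, 8.83 and 8.78 (1.59 ± 0.14, 0.000114). Nfkb1, an NF-kappaB subunit, and Hif1a, the oxygen-regulated factor, rose by 1.79 ± 0.22 (0.00112) and 1.33 ± 0.16 (0.00111). In the other direction, Xrcc6, the Ku70 protein of DNA end joining, changed by -1.83 ± 0.20 (0.000527), Cd48, the ligand of 2B4, by -1.86 ± 0.23 (0.00116) and Nek6, a mitotic kinase, from 6.75, 6.17 and 6.22 to -4.77, -4.83 and -2.55 (0.00855). None of the groups overlapped, and none of these 8 calls ended when 1 of the 6 libraries was left out. The immune receptors Btla and Havcr2 and the cytokine receptor Lifr went to the lowest value in all c-EILP libraries (adjusted p = 0.0149, 0.0152 and 0.0125). Leaving out ALP replicate 2 ended all 3 calls (0.0533 for Lifr). Leaving out c-EILP replicates 1 or 2 ended that of Btla (up to 0.0614), and c-EILP replicates 1 or 3 that of Havcr2 (up to 0.0615).

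Some B lineage genes fell. Of 18 tested, 4 fell (22.2%, against 2.03% of all tested genes) and 0 rose, with 2 falls left without c-EILP replicate 3 or without ALP replicate 1. The median was -1.10, or -0.79 without 5 at the lowest value throughout one group. Those 5 passed the filter through other libraries, so the count is no independent support. Rag1, a subunit of the recombinase that assembles antigen receptor genes, was 4.26, 2.88 and 1.98 in ALP and at the lowest value in every c-EILP library (limma adjusted p = 0.00219). Ighm, the immunoglobulin mu constant gene, was 11.18, 10.60 and 10.43 in ALP and 9.36, 9.50 and 9.52 in c-EILP (-1.35 ± 0.20, 0.00309). Blnk, a linker of the B cell receptor, went from 7.48, 8.48 and 7.20 to 1.99, -4.83 and -4.83 (0.0325), and Mzb1, a chaperone of antibody-secreting cells, from 2.54, 0.27 and 0.65 to the lowest value (0.0152). Blnk lost its call without any library other than c-EILP replicate 1 (up to 0.143) and Mzb1 without c-EILP replicate 1, c-EILP replicate 3 or ALP replicate 1 (up to 0.0786). Ebf1, the factor that specifies B cells, was 1.61, 4.46 and 0.61 in ALP and at the lowest value in all c-EILP libraries without passing (0.06), as was Rag2 at 6.98, 6.49 and 6.81 against -4.77, 1.96 and 1.35 (0.115).

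Immunoglobulin heavy chain segments and Dntt bear on the same lineage. The 11 heavy variable, diversity and joining segments tested were listed after values had been seen and share reads with near copies. Of them 7 fell (63.6%, against 2.03% of all tested genes) and 0 rose. The median was -6.65, or -5.17 without 5 wholly at the lowest value in a group. Segments wholly at the lowest value in a group passed the filter through other libraries, so the count is no independent support. The 7 falls became 4 without c-EILP replicate 1, ALP replicate 1 or ALP replicate 2, and 2 with the 6 libraries fitted alone. A run of 5 neighbouring variable segments on chromosome 12 was among them (chr12:115833950-115964250). The middle segment of the run was 4.64, 4.41 and 3.89 in ALP and at the lowest value in every c-EILP library (limma adjusted p = 0.00102). Dntt, the terminal transferase that adds bases at receptor junctions, held the highest value of the table, 11.87, in all 3 ALP libraries and was 8.12, 8.24 and 8.84 in c-EILP. Despite groups far apart it did not pass in the fit of all libraries (-2.98 ± 1.79, adjusted p = 0.478), in which the ILCP libraries spread from -4.55 to 6.10, but passed when the 6 libraries were fitted alone (-3.36, 0.00398). That smaller fit ended other calls, as given beside Il2rb, Ccl5 and Itga2b.

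Genes of dendritic cells were also among the falls. Of 18 tested, 6 fell (33.3%, against 2.03% of all tested genes) and 0 rose (median -1.95). Without c-EILP replicate 3, 2 falls were left. For 6 of the 18, a whole group was at the lowest value. Those passed the filter through other libraries, so the count is no independent support. Irf8, a factor of dendritic cell and monocyte fate, was 10.47, 10.24 and 9.92 in ALP and 8.79, 9.75 and 7.76 in c-EILP (-1.81 ± 0.32, limma adjusted p = 0.00727; 0.0592 without c-EILP replicate 3). Tcf4, the E protein of plasmacytoid dendritic cells, went from 8.72, 8.49 and 7.67 to 7.31, 6.33 and 6.41 (-1.66 ± 0.32, 0.0139), a call that ended without c-EILP replicate 3, ALP replicate 1 (0.0995) or ALP replicate 2. Runx2, also used in plasmacytoid cells, went from 7.59, 6.97 and 6.46 to 4.42, 4.93 and 3.08 (-3.32 ± 0.43, 0.00153). Cox6a2, a cytochrome oxidase subunit, fell from 7.04, 7.51 and 6.39 to 0.95, 3.94 and -2.37 (-6.63 ± 1.28, 0.0128; 0.0683 without c-EILP replicate 3, and lost without ALP replicate 2). Ccr9, a chemokine receptor, and Cd300c, a surface receptor of the CD300 family, were the others (0.00394 and 0.0128), and Cd300c lost its call without c-EILP replicate 3 or ALP replicate 1 (0.0658). The 3 defining plasmacytoid markers Siglech, Bst2 and Tcf4 summed to 353 to 673 in linear units in ALP and 122 to 217 in c-EILP. Tcf4 was the only 1 of the 3 that was called and is itself among the falls above, so the sum is no separate evidence. The part of plasmacytoid cells in these falls was not tested.

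Falls of genes of lysosomes and of endosomal sensing were counted on a list added after values had been seen. Of 18 tested, 10 fell (55.6%, against 2.03% of all tested genes) and 0 rose (median -1.26). The falls became 5 without c-EILP replicate 1, ALP replicate 1 or ALP replicate 2 and 6 without c-EILP replicate 2. Ctso, Ctss, Psap, Pld4 and Cst3 were, with Tlr7, the members that lost their call without 1 library, with adjusted p up to 0.186 (Psap, without c-EILP replicate 3). Unc93b1, the chaperone that carries nucleic acid-sensing Toll-like receptors to endosomes, was 9.32, 9.27 and 8.61 in ALP and 6.82, 7.45 and 6.43 in c-EILP (-2.34 ± 0.37, limma adjusted p = 0.00433). Lgmn and Ctsb, lysosomal proteases, changed by -3.56 ± 0.58 (0.00566) and -1.19 ± 0.22 (0.00914). Tlr7, a receptor of single-stranded RNA, went from 6.65, 6.88 and 6.05 to -2.28, -4.83 and -4.83 (0.0189), although leaving out any 1 of the 6 libraries ended its call (up to 0.0702 without c-EILP replicate 3). Mpeg1, a pore-forming protein of phagocytes, was 8.91, 8.98 and 8.49 in ALP and 3.99, 5.92 and 3.74 in c-EILP (-4.42 ± 0.72, 0.00545). In MHC class II genes 1 of 9 fell, H2-DMa, which loads peptides (-1.69 ± 0.26, 0.00384). The myeloid list was mixed, with 2 rises (Cebpb and Fcer1g) and 1 fall (Ly86) among 25 tested, and neutrophil granule genes gave 0 calls of 9 by limma. Of the myeloid calls, Cebpb ended without any library other than ALP replicate 2 (up to 0.185) and Ly86 without c-EILP replicates 1 and 3 or ALP replicates 2 and 3 (up to 0.112).

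Stem and multipotent progenitor genes fell in 5 and rose in 3 of 22 tested (median -1.51). These were 22.7% and 13.6%, against 2.03% and 1.97% of all tested genes. Without c-EILP replicate 3 there were 3 falls and 1 rise, and there was 1 rise without c-EILP replicate 1, ALP replicate 1 or ALP replicate 2. Cd34, a sialomucin of early progenitors, was 10.49, 10.10 and 10.49 in ALP and 8.93, 9.52 and 8.76 in c-EILP (-1.53 ± 0.28, limma adjusted p = 0.00954). Egfl7, a secreted factor whose gene hosts a microRNA, was 7.78, 7.84 and 7.30 in ALP and 3.40, 4.12 and 4.51 in c-EILP, 12.6-fold lower (-3.65 ± 0.51, 0.00219). Eltd1, an adhesion receptor, changed by -2.84 ± 0.37 (0.00156), Mef2c, a factor of lymphoid priming, by -2.10 ± 0.40 (0.0112) and Hhex, a homeobox factor, by -1.49 ± 0.36 (0.0397). The rises were Mycn, Sox4 and Mllt3. Sox4, an HMG-box factor, rose by 0.77 ± 0.16 (0.0207) and Mllt3, a chromatin reader of stem cells, by 3.39 ± 0.83 (0.0412). Calls ended for Mef2c without c-EILP replicate 3 (0.0818) or ALP replicate 1, for Hhex without any library (up to 0.132), for Sox4 without any other than c-EILP replicate 2 (up to 0.126) and for Mllt3 without any other than ALP replicate 3 (up to 0.182). Emb, an adhesion glycoprotein, and Cd47, the signal that restrains phagocytosis, also fell, with differences of -1.87 ± 0.25 (0.00176) and -0.97 ± 0.15 (0.00422). Cd34 and Cd47 kept their calls whichever of the 6 libraries was left out. They lost them with no batch term (limma adjusted p = 0.108 and 0.0501), a replicate block (0.0861 and 0.0832) or no intensity trend (0.0544 and 0.0587).

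Several cell cycle genes fell. Of 26 replication and mitosis genes tested, 9 fell (34.6%, against 2.03% of all tested genes) and 0 rose. All 26 differences were negative, with a median of -0.93. The 9 became 5 without c-EILP replicate 1 and 4 without c-EILP replicate 2, c-EILP replicate 3, ALP replicate 2 or ALP replicate 3. Top2a, the topoisomerase of dividing cells, was 9.42, 9.63 and 9.94 in ALP and 8.18, 8.13 and 8.67 in c-EILP (-1.30 ± 0.23, limma adjusted p = 0.00764). Ccnb1 and Ccnb2, mitotic cyclins, changed by -1.71 ± 0.32 (0.0108) and -1.48 ± 0.25 (0.00581), and Ccna2 by -1.47 ± 0.27 (0.00988). Cdk1, Aurkb, Plk1, Birc5 and Cdc6 were the others, with differences from -1.33 for Cdk1 to -0.93 for Cdc6. Leaving out 1 library ended the calls of Ccna2 (0.0584 without c-EILP replicate 3), Aurkb (up to 0.0668 without ALP replicate 2), Cdk1 (0.142 without c-EILP replicate 3), Birc5 (0.112 without c-EILP replicate 1), Plk1 (0.181 without c-EILP replicate 3) and Cdc6 (0.19 without ALP replicate 1). Mki67, a common marker of cycling cells, was 6.67, 7.84 and 7.95 in ALP and 6.23, 5.82 and 6.46 in c-EILP and did not pass (0.196). Cdkn1a, the p21 inhibitor of cyclin-dependent kinases, rose from 5.42, 6.32 and 5.74 to 7.66, 7.59 and 7.52 (1.82 ± 0.27, 0.00292), the single call among 10 D cyclins and inhibitors. Of 16 histone variants and HMG proteins, listed after values had been seen, 6 fell (37.5%, against 2.03% of all tested genes) and 0 rose. Among the 6 were H2afx (-1.24 ± 0.21, 0.00581) and Hmgb2 (-1.0 ± 0.16, 0.00455).

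Survival and growth regulators changed in single members. Bcl2, the anti-apoptotic protein that sustains lymphocytes, was 7.85, 7.73 and 7.74 in ALP and 10.29, 9.91 and 9.88 in c-EILP, 4.86-fold higher (2.28 ± 0.17, limma adjusted p = 2.37e-05), the 1 call among 13 Bcl2 family genes. Mycn was 5.23, 5.19 and 5.85 in ALP and 8.28, 8.23 and 8.44 in c-EILP, 8.36-fold higher (3.06 ± 0.28, 0.000116). Its relative Myc was 9.15, 8.91 and 9.07 against 8.33, 8.87 and 8.78 and did not pass (-0.33 ± 0.24, 0.571). Aldoa, a glycolytic enzyme, was the 1 rise among 18 glycolysis genes (0.86 ± 0.16, 0.00954; 0.0683 without c-EILP replicate 3).

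Other wide falls had less in common. Map4k5, a kinase of stress signalling, was 6.52, 6.05 and 5.26 in ALP and -0.67, -3.59 and 3.41 in c-EILP (-5.91 ± 1.36, limma adjusted p = 0.0317). Evl, an actin regulator, was 6.22, 6.55 and 4.25 in ALP and 1.74, 2.93 and -0.99 in c-EILP (-4.81 ± 0.81, 0.00615). Tmem119, Hlx, Dirc2, Tmem109 and Eea1 differed by -4.08, -3.98, -3.95, -3.85 and -3.83, with adjusted p of 0.0152, 0.0325, 0.0104, 0.0152 and 0.0232. Gfra1, a receptor of glial-derived growth factors, and Ddx4, a germ cell helicase, were at 5.61, 5.29 and 4.95 and at 5.34, 5.11 and 5.33 in ALP and at the lowest value in all c-EILP libraries (0.0421 and 0.00652). Evl alone among these 9 kept its call whichever library was left out, but lost it with the 6 libraries fitted alone (0.0627). The others reached adjusted p of 0.184 (Map4k5, without ALP replicate 1), 0.091 (Tmem119, without c-EILP replicate 3), 0.139 (Hlx, without ALP replicate 1), 0.0683 (Dirc2, without c-EILP replicate 3), 0.0624 (Tmem109, without ALP replicate 1), 0.116 (Eea1, without ALP replicate 1), 0.133 (Gfra1, without ALP replicate 1) and 0.0514 (Ddx4, without c-EILP replicate 3).

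Some lists gave 0 calls under limma. These were Wnt partners (16 tested), neutrophil granule genes (9), early response genes (13, median -0.77), interferon response genes (22), ribosomal proteins (78, median -0.32, 74 of them negative) and mitochondrially encoded genes (15, median -0.06). Lymphoid priming factors gave 3 rises of 16 (18.8%, against 1.97% of all tested genes), Sox4, Stat5a and Stat5b. Ikzf1 (-0.24 ± 0.22) and Myb (-0.22 ± 0.19) did not pass. Chemokine and homing receptors gave 2 falls of 19 (10.5%, against 2.03% of all tested genes), Cd44 and Cd47. Cd44 lost its call without ALP replicate 1 (0.0595) or ALP replicate 2. E and Id proteins were divided between Id2, which rose, and Tcf4, which fell, with Tcf3 at 0.40 ± 0.14 (0.177).

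**Figure D4:**
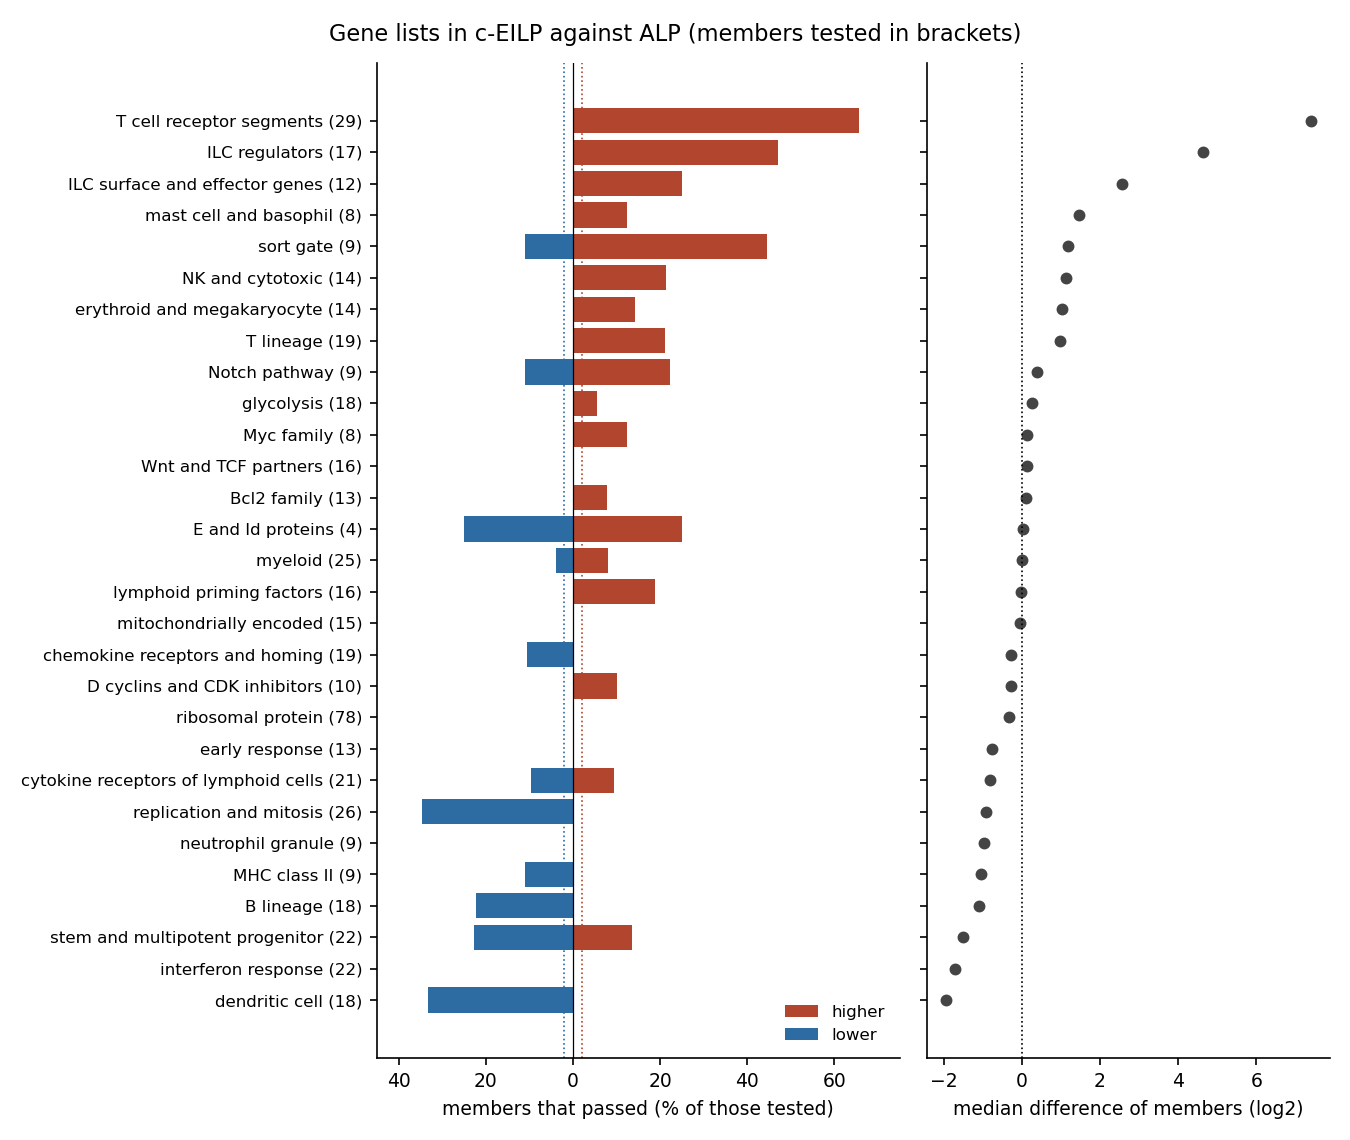
Gene lists in 1 row each, with the percentage of tested members that were higher (red, to the right) or lower (blue, to the left) in c-EILP on the left panel and the median log2 difference on the right panel; dotted lines give the same for all tested genes (1.97%, 2.03% and 0.01). T cell receptor segments (median 7.41) and ILC regulators (4.64) have the highest medians, and replication and mitosis genes (-0.93) fell in 9 of 26 members.

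Between c-EILP and s-EILP, which carry the same reporters, 0 of 12572 genes passed (0.00%; limma, 647 at an unadjusted p under 0.05), with only 2 s-EILP libraries, both of batch 1. Several genes that separated c-EILP from ALP were nonetheless at or near the lowest value in s-EILP. Fgf15 was at the lowest value in both s-EILP libraries, as was Txk, and Bcl11b was at -3.29 and -4.83 (differences from c-EILP with adjusted p of 0.534, 0.534 and 0.393). Rxrg stood at 1.83 and -4.83, and Tox2 at -4.72 and 4.75. Others had s-EILP values close to those of c-EILP: Cpa3 at 9.89 and 10, Itga4 at 9.71 and 9.76, Id2 at 8.37 and 8.24 and Perp at 4.83 and 5.34. Tcf7 (9.98 and 10.23), Gata3 (6.31 and 6.38), Tox (7.43 and 7.50) and Fgf3 (5.12 and 5.36) lay between the ALP and c-EILP values, as did Bcl2 (9.28 and 9.40). Flt3, at 9.47 and 8.78, lay between them as well. Nfil3 was higher in s-EILP (9.60 and 9.13) than in any c-EILP library, without passing (-1.61 ± 0.59, 0.797).

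Levels in the other groups place these genes further. In ILCP, Gata3 reached 9.48 and 10.14, Id2 10.84 and 11.23, Bcl11b 7.42 and 8.35 and Tox2 9.17 and 9.42, each above every c-EILP library. Fgf3, at 5.17 and 2.66 in ILCP, and Tnni1, at 5.45 and 4.92, were below every c-EILP library there. Cpa3 was likewise lower in ILCP, at 6.73 and 6.49, and Mycn at 6.38 and 6.53. In the Tcf7EGFPnull/- EILP, Fgf3 was -4.60 and 2.83, Tcrg-C4 was at the lowest value in both libraries and Bcl11b too, whereas Id2 was 9.64 and 9.30. These comparisons share the ALP libraries or were not tested against c-EILP, and the values are given as a description.

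**Figure D5:**
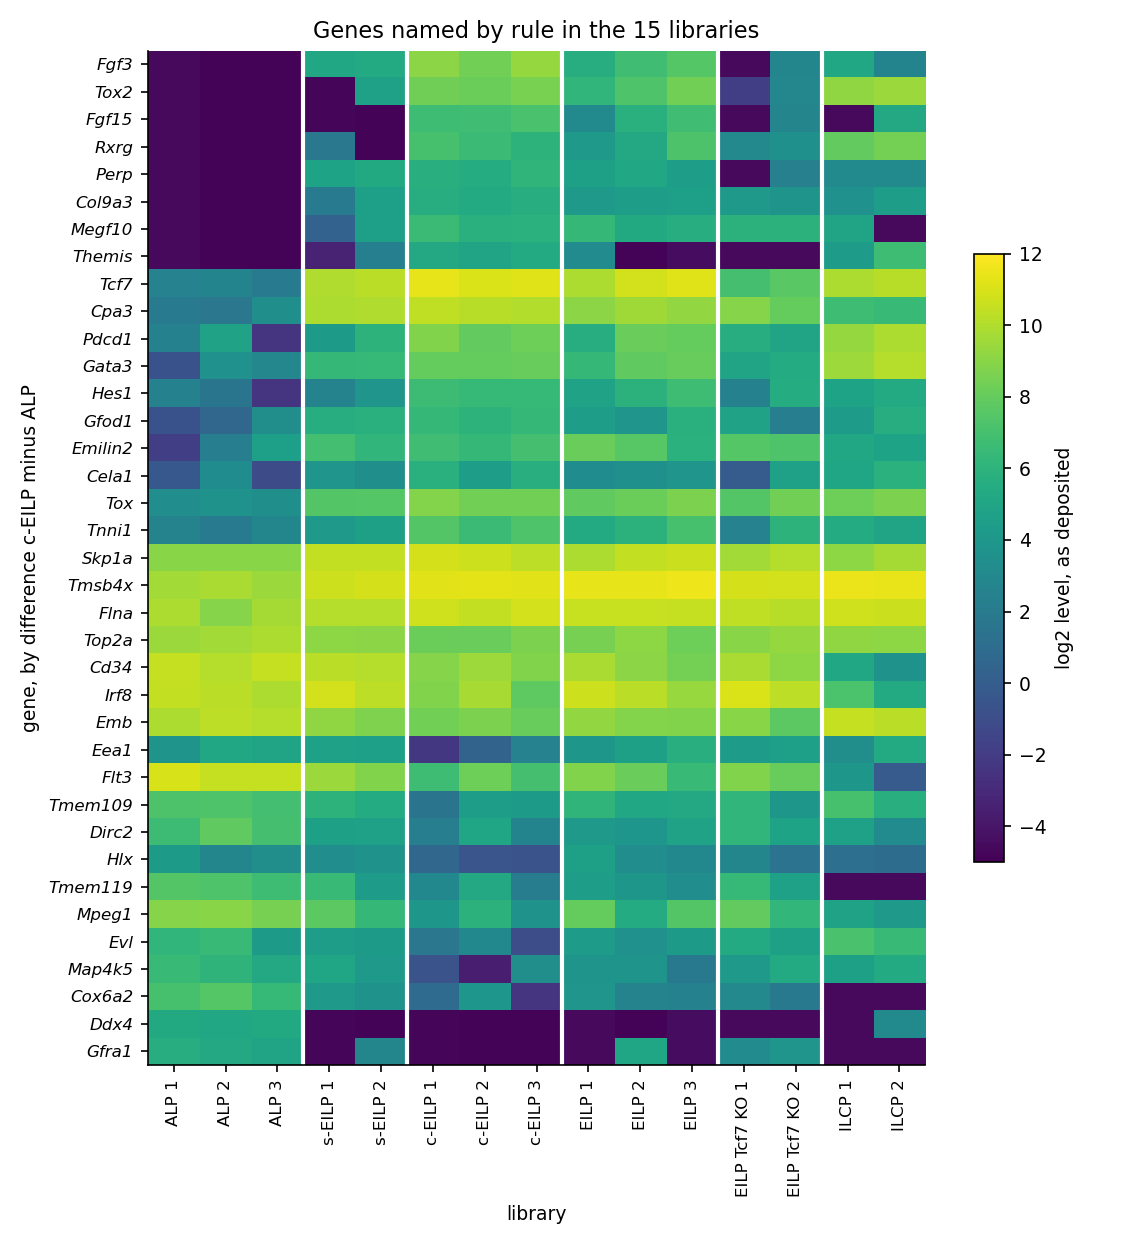
Log2 values of the genes with the widest or most abundant changes in all 15 libraries, 1 row per gene and 1 column per library, ordered by group. Tcf7 and Cpa3 are above the ALP values in all other libraries, while Tox2 and Fgf15 are high in every c-EILP library and at or near the lowest value in ALP.

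Defining markers of other cells were summed per library; all groups were sorted as Lin-, a gate meant to remove cells that carry mature lineage markers. T cell markers summed to 0.141 to 0.165 in linear units in ALP and 13.3 to 38.7 in c-EILP, with Cd3e and Cd3g at the lowest value throughout ALP. Bcl11b, described above with the ILC regulators, was the 1 of these 4 markers that rose. It made up most of the sum in every c-EILP library, so the sum is not a rise of T cell markers as a class. Neutrophil markers were uneven within both groups, from 0.144 to 151 in ALP and from 0.146 to 638 in c-EILP, with the highest sum in c-EILP replicate 3, where S100a8 was 7.77. Monocyte markers were 490 to 645 in ALP and 128 to 694 in c-EILP, and erythroid markers 4.74 to 133 and 31.7 to 177. Ebf1, the only B cell marker measured of 4, gave 1.52 to 22.1 in ALP and was at the lowest value in c-EILP. The part of such cells in the changed genes was not tested.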

How the data were processed

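Bulk RNA-seq libraries of cells sorted from mouse bone marrow were prepared, per the labels' protocols, with the RNeasy plus micro kit, the SMARTer Ultra Low Input v3 kit and Nextera XT. Tools named in the submitters' processing notes are STAR 2.5.2b, RSEM 1.2.23, bcl2fastq 2.17 and limma, with mm10 as the build; the annotation is not given in the sources used here. The authors deposited 1 table of 12798 genes with log2 values for 15 libraries; the near-identical distributions and their scale point to normalized log2 expression, which equalizes the libraries' overall distributions and hides depth. A further 24 columns without a name or values were not used. No counts were available to this work, so no count test was run and no depth-based interval is given.

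A gene was tested where 2 or more of the 15 libraries reached a log2 value of 0 (12572 genes; 226 left out). limma 3.58.1 (R 4.3.3) fitted all 15 libraries with group and batch as terms and an intensity trend, with 8 residual degrees of freedom; p-values were adjusted by Benjamini-Hochberg over all tested genes, and a gene changed at adjusted p under 0.05. Differences are on the deposited log2 scale, given with their SE. The fit was also run on simulated data. Changes were added there only to genes above the median level, and the spread within groups was shuffled over libraries. That run is therefore no check on low genes or on batch. The members and gene lists were chosen with earlier results of these data known; 6 of 35 lists were added after values had been seen. Genes were named by rule among changed genes of at least 1 log2 unit without overlap and without predicted genes or receptor segments: the 10 largest rises and falls above the lowest value in all 6 libraries, up to 8 rises and falls from or to the lowest value in a whole group, the 5 rises and falls of highest level, and the changed or defining members of each list (4 if more changed). Others are said to be chosen later. Some members of these lists are not reported here by name. Replicate numbers of c-EILP and ALP are used as sample names, and the main fit held no pairing by number. The 21 alternative settings covered the libraries fitted, batch, block, variance model, weights, scaling, filter, low values and each replicate; 1 more, a term for libraries with Y-linked transcripts, was chosen after seeing the data. Gene positions are from GENCODE's mm10 annotation and promoter windows from RefSeq (GRCm38.p6). Linear levels of markers are sums of 2 raised to the log2 value. Tables and plots used pandas 2.3.3, numpy 2.4.6 and matplotlib 3.10.9.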

Additional observations from a re-analysis of the deposited data

How the results depend on the processing

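Of the 503 changed genes (248 higher, 255 lower), each kept its direction under every one of the 21 alternative settings and the added one that fitted it. The setting that leaves out genes wholly at the lowest value in a group gave no value for 97 of them; of the 406 fitted throughout, 41 stayed called under every setting other than batch 2 alone. Fitting the 6 c-EILP and ALP libraries alone gave 318 (149 and 169), of which 250 were among the 503; no intensity trend gave 330, with 163 lower. A replicate block gave 105 (48 and 57). Deviations of same-numbered libraries from their group means correlated at r of 0.004, 0.021 and -0.008, and the libraries numbered 2 lie in different batches. The labels give no pairing, so these values cannot decide whether the block is needed. Batch 1 alone, with 1 ALP library, gave 266 (202 higher, 64 lower, 75.9% higher against 49.3%), and batch 2 alone 0 by limma (0 and 0; 1807 at an unadjusted p under 0.05). A term for libraries with Y-linked transcripts, added after the data were seen, gave 394 with 163 lower, and 58.6% higher. With it, 327 of the 503 (65.0%) stayed called. Among the calls lost were those of Pdcd1 (limma adjusted p = 0.0531), Rbpj (0.119), Themis (0.12), Blnk (0.137) and Gfra1 (0.168). Leaving out 1 library gave 256 to 543 changed, 127 to 262 higher and 111 to 281 lower; the lowest counts came without c-EILP replicate 1 (256) and ALP replicate 2 (111 lower), and the highest without replicate 3 of the Tcf7EGFPnull/+ EILP. Without ALP replicate 2, 59.5% of the calls were higher. Other scalings (quantile 510, cyclic loess 512, median centring 499), no filter (502), a robust prior (489), quality weights (702), no batch term (472), values under 0 set to 0 (580) and leaving out genes wholly at the lowest value in a group (353) stayed within 1.5 times. The cause of each shift was not tested. Without counts, the precision of low values is unknown.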
